A study of Mus musculus with 29 samples.

Results

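The MaLR elements (mammalian apparent LTR retrotransposons) were followed across 20 RNA libraries of mouse embryonic stem cells. They were taken by name, as every repeat row that the deposited count tables place in the ERVL-MaLR family of the LTR class. This gave 108 of the 1180 element subfamilies, among 25574 genes and elements in each table. By name they fall into 29 ORR1 rows, 20 MT rows and 59 MLT rows. Each row sums the reads that the authors assigned to all copies of a subfamily, so 1 row is not 1 locus.

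MaLR elements are old relatives of the ERVL retroviruses that keep long terminal repeats but encode no protein of their own, so their copies moved only with the help of other elements. Rows named "-int" hold the internal part of an element, and rows without it hold the long terminal repeat (LTR), which carries the promoter. ORR1 and MT elements are specific to rodents, whereas MLT elements are older and shared across placental mammals, and within the ORR1 and MT names the early letters are broadly the younger copies. LTRs of MT elements are known as promoters of mouse oocyte transcripts, among them a short oocyte form of Dicer1, and MaLR transcripts are abundant in the oocyte and the early embryo. Their coding relative MERVL, with its LTR MT2_Mm, is transcribed in the 2-cell embryo and in rare embryonic stem cells that resemble it, where the homeobox factor Dux switches it on.

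The libraries came from 4 count tables with 10 groups of 2 libraries each. All cells were embryonic stem cells of strain 129/Ola, grown in serum medium on gelatin and labelled untreated. The first table held wild-type cells (WT) and 2 lines labelled Trim66 knockout, KO-1 and KO-2, written KO1 and KO2 here; TRIM66 is a chromatin reader of the TRIM24, TRIM28 and TRIM33 family. The second held cells overexpressing GFP from the empty vector or GFP-tagged TRIM66. The third held a control and 2 hairpins, sh1 and sh2, against Dax1 (gene symbol Nr0b1), an orphan nuclear receptor that acts as a corepressor. The fourth held a double knockdown of Dax1 and Dux with a control of its own. No label gives separate cultures, clones or days for the 2 libraries of a group, so p-values measure only the spread between these libraries, which may be technical. Because the samples are bulk RNA, fewer cells carrying a transcript and less of it per cell cannot be told apart.

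Library totals ran from 12483949 to 17365296 counts. MaLR rows took 0.268% (95% exact binomial interval 0.266 to 0.271, counting error only) to 0.756% (0.752 to 0.761) of a library's counts and 5.39% to 7.87% of its element counts. The targeted genes were read as a check of the labels. Trim66 stood at 0.789 and 1.01 CPM (a row's share of the library's counts, scaled by TMM within each table) in the wild-type libraries, at 2.65 and 2.61 in KO1 and at 2.51 and 2.80 in KO2. The gene-level count was thus higher, not lower, in both lines and does not bear out their label. Which exons it covers is not given, so it cannot decide whether the gene is disrupted. The lines are called the libraries labelled KO1 and KO2. With GFP-TRIM66 it stood at 223 and 196 CPM against 1.80 and 1.68 with the vector. Nr0b1 fell from 150 and 158 CPM to 62.7 and 58.3 with sh1 and to 77.5 and 77.7 with sh2. In the double knockdown it stood at 20.1 and 24.5 CPM against 49.5 and 33.6, a difference that did not pass the test (edgeR quasi-likelihood F test, adjusted p = 0.275). Dux, the other target there, had 0 counts in both control libraries and 2 and 0 in the double knockdown, so its knockdown was not detectable at this depth; these libraries carry the name of their label only. In the Dax1 table Dux had 0 counts in both controls, 49 and 54 with sh1 and 14 and 26 with sh2. The 10 embryonic stem cell markers were detected in every library, at a summed 2968 to 4557 CPM in the double knockdown table and 5751 to 9121 elsewhere. Scales were set separately for each table, so these ranges are not a comparison between tables.

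Most MaLR reads came from ORR1 and MT. Over all libraries MT rows held 43.2% of MaLR counts, ORR1 rows 41.7% and MLT rows 15.1%. The rows with the most reads were MTD, with a mean of 382 CPM over the 20 libraries, MTA_Mm-int with 292, MTC with 232 and MTA_Mm with 211. Among ORR1 rows ORR1D1 led with 170 CPM, followed by ORR1B1 with 134 and ORR1E with 129. MLT1A1, with 110 CPM, led the MLT rows, ahead of MLT1B with 63.2 and MLT1C with 58.6. These are reads summed over all copies of a subfamily, and since copy numbers and lengths were not used here they do not rank the subfamilies per copy or per length.

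Not all 108 rows could be tested. A filter on low counts kept 86 of them in all 4 tables: 28 of 29 ORR1 rows, all 20 MT rows and 38 of 59 MLT rows. MLT1J-int passed in 3 tables and MLT1C-int in 1. The other 20 were tested in none; they were ORR1G-int, with 22 counts in all libraries together, and 19 internal MLT rows, of which the highest, MLT1G3-int, had 60 counts in all and MLT1E1-int, MLT1K-int, MLT1L-int and MLT1O-int had 0. Counts below concern only the rows tested. The mean count per library of the rows tested throughout had a median of 847 for ORR1, 711 for MT and 108 for MLT, and the MLT fold changes accordingly carried wider errors, with a median standard error of 0.21 on the log2 scale in the sh2 comparison against 0.0784 for ORR1 and 0.0846 for MT.

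**Figure D1:**
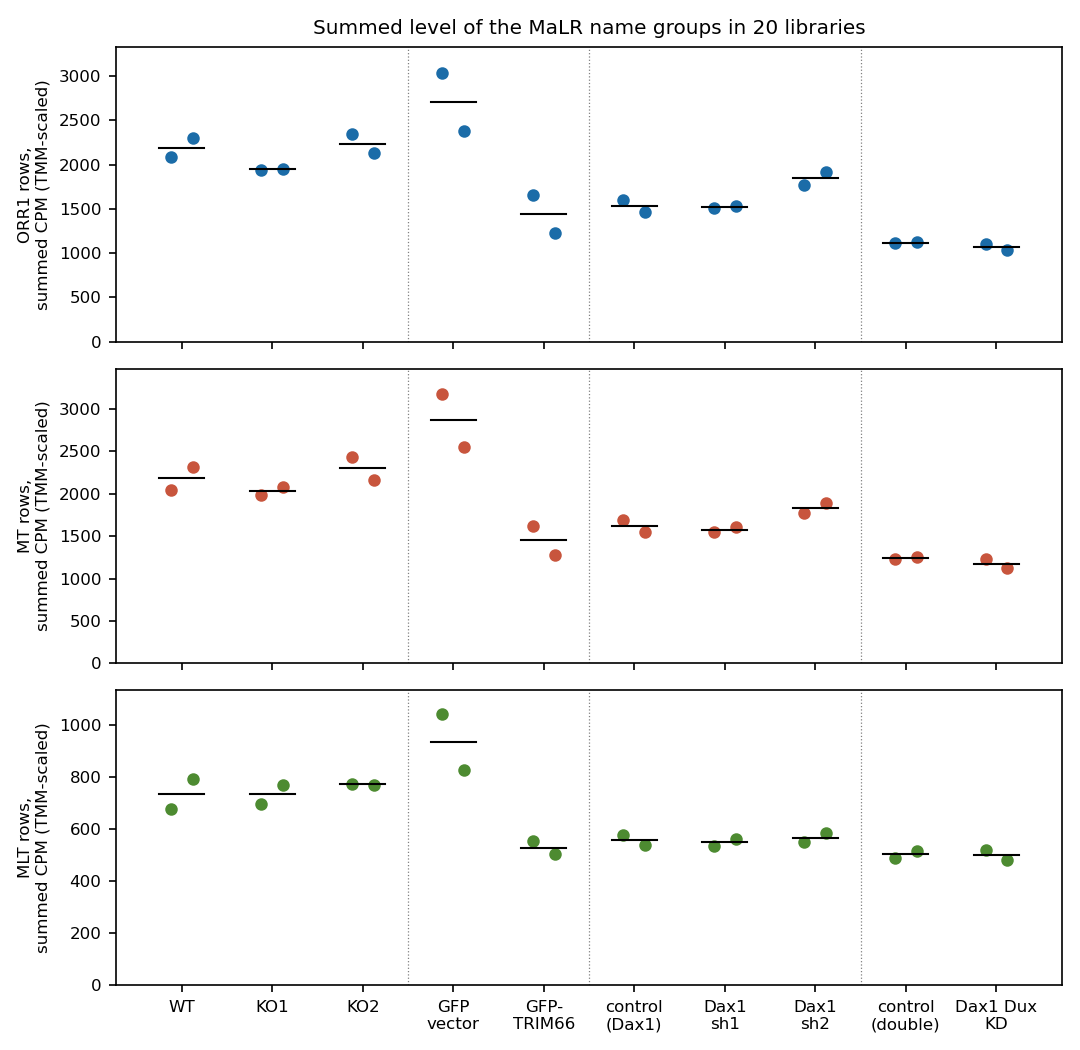
Summed level of the ORR1, MT and MLT rows (CPM, TMM-scaled within each table, linear axes from 0) in the 20 libraries; points are libraries, bars group means of 2 libraries, and dotted lines part the 4 tables, whose scales were set separately. In all 3 name groups both GFP-TRIM66 libraries sit below both GFP vector libraries, and in ORR1 and MT both sh2 libraries sit above the control and sh1 libraries.

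The summed levels gave the broad picture, as a description with no test. ORR1 rows stood at 1600 and 1462 CPM in the Dax1 control, 1509 and 1528 with sh1 and 1773 and 1917 with sh2. MT rows stood at 1687 and 1549, 1544 and 1603, and 1775 and 1896 CPM in the same order. The sh2 libraries were thus the highest of the table for both name groups, while the control and sh1 libraries overlapped. MLT rows stood at 578 and 539 CPM in the control, 537 and 564 with sh1 and 550 and 585 with sh2, and these overlapped. The summed ratio of sh2 to the control was 1.20 for ORR1, 1.13 for MT, 1.02 for MLT and 1.10 for all other elements. The largest shift of any table lay between the overexpression libraries, where GFP-TRIM66 stood at 0.531 of the vector level for ORR1, 0.506 for MT and 0.565 for MLT, beside 0.563 for all other elements.

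Knockdown of Dax1 with sh1 left the MaLR rows near the control as a group, although MERVL rose strongly in the same libraries. MERVL-int went from 108 and 111 CPM in the control to 1121 and 1150 with sh1, a log2 fold change of 3.38. Of the 87 MaLR rows tested, 5 rose and 10 fell with sh1 at an adjusted p under 0.05 (edgeR quasi-likelihood F test, Benjamini-Hochberg over all features), in a comparison where 43.4% of all features (22.3% higher, 21.2% lower) and 23.5% of elements were called. Their median log2 fold change was -0.01, beside 0.03 for the other elements. Both sh1 and sh2 are read against the same 2 control libraries, so their values below stand side by side only, apart from the direct comparison of sh2 with sh1.

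The rows that rose with sh1 were internal sequences and 1 MLT LTR. ORR1A1-int, the internal part of one of the youngest ORR1 subfamilies, stood at 21.5 and 24.2 CPM in the control and at 35.4 and 36.0 with sh1, a rise of 0.65 on the log2 scale (SE 0.0917, adjusted p = 1.83e-06). ORR1A3-int went from 21.8 and 20.7 to 31.6 and 29.5 CPM, MT-int from 6.36 and 3.92 to 9.15 and 8.77. In these rows both sh1 libraries lay above both controls. MLT1J2 rose by 0.66 and MTEb-int by 0.32 on the log2 scale, the latter with an adjusted p of 0.049.

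Of the 10 rows that fell with sh1, 6 were LTRs of ORR1 and MT. MTEa, an LTR of the last MT letter, stood at 110 and 108 CPM in the control and at 81.3 and 85.4 with sh1, a log2 change of -0.39 (SE 0.0573, adjusted p = 3.53e-06). MTB went from 90.0 and 82.7 to 67.5 and 68.2 CPM. MLT-int went from 17.2 and 16.7 to 9.71 and 12.3 CPM, a log2 change of -0.62. Both sh1 libraries were the lower ones in each of these. ORR1D1, ORR1E, ORR1G and ORR1D1-int fell by 0.18, 0.17, 0.25 and 0.39 on the log2 scale, MTC by 0.15, MLT1A0 by 0.24 and MLT1E2 (a row chosen after its values were seen) by 0.22. The count of 15 called rows was 9 without control replicate 1 and 9 without sh1 replicate 1, 6 with DESeq2 and 1 when all 20 libraries were fitted together.

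With sh2, which raised MERVL less, ORR1 and MT rows were higher than in the control, and more MaLR rows were called than with sh1. MERVL-int stood at 529 and 592 CPM, a log2 fold change of 2.36 against the control. Of the 87 MaLR rows, 27 rose and 2 fell, where 25.1% of all features (12.5% higher, 12.5% lower) and 23.7% of elements were called. By name group 16 of 28 ORR1 rows and 8 of 20 MT rows rose and none fell, while 3 of 39 MLT rows rose and 2 fell. Medians of the log2 fold change were 0.24 for ORR1, 0.22 for MT and 0.03 for MLT, beside 0.19 for all other elements, of which 161 rose and 11 fell of 761; with elements alone fitted and scaled they were 0.07, 0.06 and -0.13. Other families rose as well: 45 of 119 L1 rows, 61 of 251 ERVK rows and 11 of 66 ERVL rows also rose.

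The most precise increases with sh2 were in internal ORR1 sequences. ORR1B1-int stood at 101 and 93.6 CPM in the control and at 128 and 140 with sh2, a rise of 0.47 on the log2 scale (SE 0.0592, adjusted p = 9.24e-07). ORR1A0-int went from 99.6 and 92.4 to 129 and 129 CPM, a change of 0.43 (SE 0.0581, adjusted p = 2.62e-06). ORR1A1-int went from 21.5 and 24.2 to 34.9 and 38.2 CPM, a change of 0.68 that lies beside the 0.65 seen with sh1. In all 3 rows the sh2 libraries were above both controls. ORR1A2-int rose by 0.47. The LTR rows of the same subfamilies were also higher, ORR1A1 at 46.9 and 40.0 CPM in the control and 60.8 and 60.6 with sh2 (log2 0.48), ORR1A2 by 0.36, ORR1A4 by 0.32 and ORR1A0 by 0.32. Near-identical subfamilies such as ORR1A0-int and ORR1A1-int may share reads, and how reads with several matches were counted is not given in the sources used here.

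MT rows rose by smaller amounts from a higher level. MTA_Mm, the LTR of the youngest MT letter, stood at 207 and 186 CPM in the control and at 232 and 243 with sh2 (log2 0.27, SE 0.0521, adjusted p = 0.000253). Its internal row MTA_Mm-int stood at 309 and 303 CPM in the control and 357 and 367 with sh2 (log2 0.24, adjusted p = 0.000173). MTD, the MaLR row with the most reads, stood at 336 and 309 CPM against 346 and 369 (log2 0.15, adjusted p = 0.0342). The sh2 libraries were above the controls in each, for MTD by less than the gap between the controls. MTC, at 207 and 187 CPM in the control and 199 and 225 with sh2, overlapped and was not called.

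Few MLT rows changed with sh2. MLT1J2 went from 3.28 and 3.34 CPM to 6.47 and 5.09, a log2 fold change of 0.80. It was also higher with sh1, against the same control libraries, and in KO1 against wild type. MLT1A0 rose by 0.24. MLT1M fell from 23.0 and 23.6 to 18.2 and 18.7 CPM (log2 -0.33, adjusted p = 0.017), and MLT1H-int fell by 0.52. The count of 29 rows was 14 without control replicate 2, 15 without sh2 replicate 2 and 14, all higher, with DESeq2. It was 0 when all 20 libraries were fitted together, where the spread of the other tables enters. When elements alone were fitted and scaled, which sets the median of elements near 0, the MaLR median was -0.01 and 9 rows were called, 5 higher (ORR1A0-int, ORR1A1-int, ORR1A1, ORR1A2-int and ORR1B1-int) and 4 lower (MLT-int, MLT1A1, MLT1H-int and MLT1M).

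**Figure D2:**
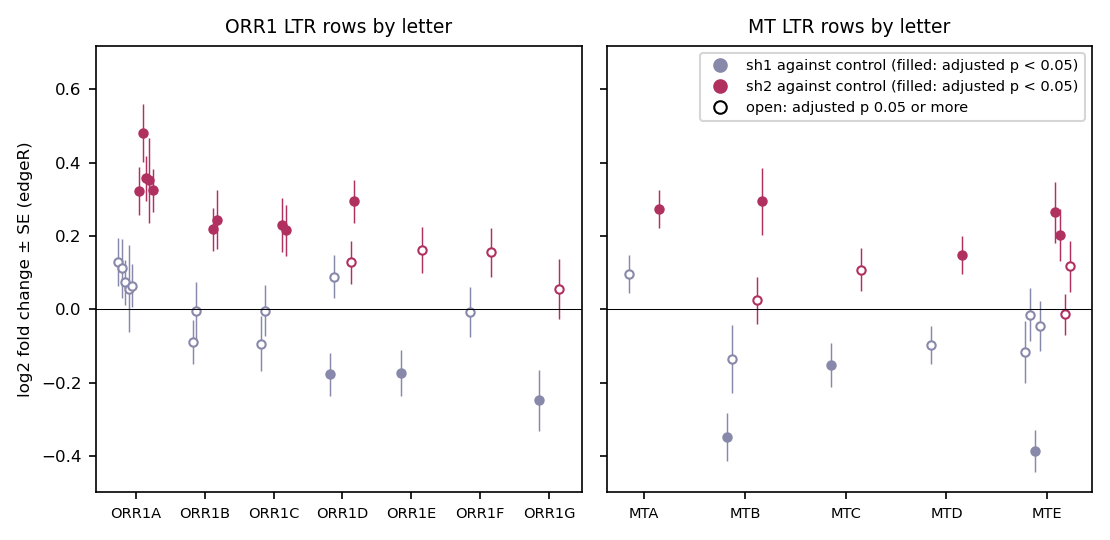
Log2 fold change with its standard error (edgeR, 2 libraries a group) of each ORR1 and MT LTR row with sh1 and sh2 against the shared control, by the letter in the name. All 5 ORR1A rows are called higher with sh2, and the ORR1E, ORR1F and ORR1G rows are not. DESeq2 does not call ORR1A3, and with elements alone fitted only ORR1A1 is called among the ORR1 LTR rows.

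Within the ORR1 LTR rows the sh2 change was highest for ORR1A and lowest for ORR1G. The steps between ORR1B, ORR1C and ORR1D were smaller than the median standard error of an ORR1 fold change, 0.0784. The median log2 fold change with sh2 was 0.35 for the 5 ORR1A rows, 0.23 for the 2 ORR1B rows, 0.22 for the 2 ORR1C rows and 0.21 for the 2 ORR1D rows, and the single ORR1E, ORR1F and ORR1G rows had 0.16, 0.16 and 0.05. All ORR1A, ORR1B and ORR1C rows and 1 of the 2 ORR1D rows were called. By DESeq2 the ORR1 LTR rows called were ORR1A0, ORR1A1, ORR1A2, ORR1A4, ORR1B1 and ORR1D2, and with elements alone fitted only ORR1A1 was. With sh1 the corresponding values were 0.07, -0.05, -0.05, -0.04, -0.17, -0.01 and -0.25, so ORR1A was highest and ORR1G lowest, with no order by letter between them, and ORR1D1, ORR1E and ORR1G were the rows called lower. The differences between letters were not tested, the letters differ in number of rows, and the 2 hairpins share their control. MT LTR rows were highest for MTA_Mm with sh2 but did not fall steadily by letter after it. Their medians were 0.27 for MTA_Mm, 0.16 for MTB, 0.11 for MTC, 0.15 for MTD and 0.16 for MTE. LTR rows were called higher more often than internal rows in number, 10 of 14 against 6 of 14 in ORR1 and 5 of 9 against 3 of 11 in MT, with medians of 0.24 and 0.25 in ORR1 and of 0.15 and 0.26 in MT.

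The direct comparison of sh2 with sh1 does not use the control. In it 30 of 87 MaLR rows were higher with sh2 and 1 lower, where 36.4% of all features (18.2% higher, 18.2% lower) and 26.8% of elements were called, and the other elements split into 155 higher and 41 lower of 761. ORR1 had 19 of 28 rows higher, MT 9 of 20, and MLT 2 higher and 1 lower of 39. LTR rows made up most of these, with 13 of 14 ORR1 LTRs and 8 of 9 MT LTRs higher against 6 of 14 and 1 of 11 internal rows. These are counts of calls, and internal rows held fewer reads. With sh2 they summed to 515 and 561 CPM in ORR1 against 1258 and 1356 for LTRs. In MT they summed to 542 and 555 against 1232 and 1341 CPM. A difference between LTR and internal rows was not tested. Over the same libraries MERVL-int was lower with sh2 by a log2 change of -1.02 and MT2_Mm by -0.65. ORR1 and MT rows thus stood in the opposite order to their coding relative between the hairpins, with medians of 0.26 and 0.20. This order was not particular to them, as the median of all elements was 0.17. With elements alone fitted the ORR1 and MT medians fell to 0.10 and 0.04, while the MLT median went from 0.03 to -0.13.

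Single rows show the difference. ORR1B1-int stood at 95.8 and 90.1 CPM with sh1 and at 128 and 140 with sh2, a log2 difference of 0.53 (SE 0.0594, adjusted p = 5.38e-08). ORR1A0-int stood at 104 and 95.2 against 129 and 129 CPM, a difference of 0.38, and ORR1A2-int at 43.1 and 43.1 against 55.1 and 61.8 CPM, a difference of 0.44. Each sh2 library was above each sh1 library. MTEa, which had fallen with sh1, stood at 81.3 and 85.4 CPM with sh1 and at 105 and 111 with sh2, where it overlapped the control. MLT1A1 went the other way, from 106 and 111 CPM with sh1 to 87.6 and 94.8 with sh2 (log2 -0.25, SE 0.0648, adjusted p = 0.00307). ORR1A1-int, by contrast, stood at 35.4 and 36.0 CPM with sh1 and at 34.9 and 38.2 with sh2, which overlap. With elements alone fitted, 9 rows were called, 7 higher and 2 lower, and the MaLR median was 0.02 in place of 0.18; fitting all 20 libraries together called 0.

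**Figure D3:**
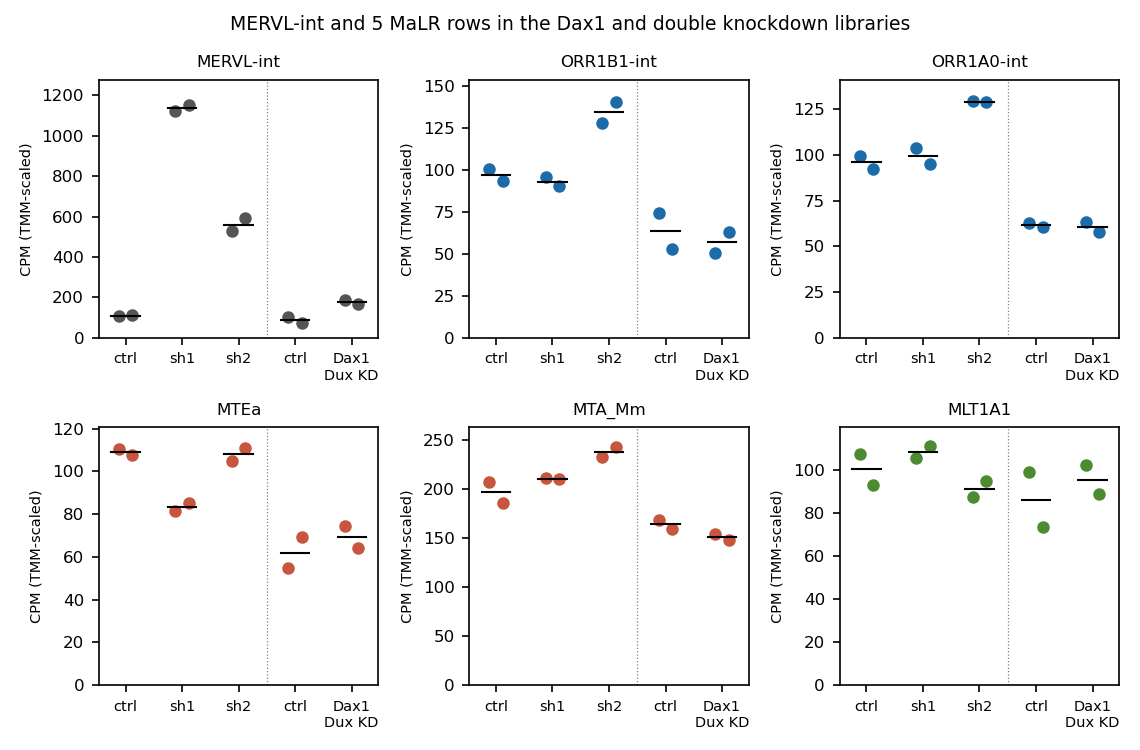
Level of MERVL-int and 5 MaLR rows (CPM, TMM-scaled within each table, linear axes from 0) in the Dax1 table, left of the dotted line, and the double knockdown table, right of it; points are libraries and bars group means of 2 libraries. MERVL-int is highest with sh1, whereas ORR1B1-int and ORR1A0-int are highest with sh2, and MTEa is low with sh1.

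Other gene groups moved with the hairpins too, and their part in the MaLR values was not tested. All 22 tested genes of the 2-cell list rose with each hairpin, from a summed 1.38 to 2.28 CPM in the control to 624 and 645 with sh1 and 254 and 254 with sh2, and 18 of the 22 were lower with sh2 than with sh1. Of the 24 list genes in the tables, 10 had 0 counts in both controls. Genes so low in the control pass the filter on low counts only through the hairpin libraries, so their rise over the control was largely fixed by the filter. Of the 10 embryonic stem cell markers 9 fell with sh1, to a summed 5751 and 5842 CPM from 7295 and 7362, while with sh2 5 rose and 1 fell, at 7595 and 7893 CPM; all 10 were higher with sh2 than with sh1. Fibroblast markers stood at a summed 53.4 and 59.2 CPM with sh1, against 19.9 and 21.8 in the control and 24.1 and 24.6 with sh2. Of the 7 tested, 5 rose and 0 fell with sh1. With sh2 they split, as Thy1, Pdgfra and Twist1 rose and Col1a1, Col1a2 and Col3a1 fell. Primitive endoderm markers were highest with sh2, at a summed 19.5 to 21.7 CPM against 10.2 to 12.8 in the control and 13.3 to 13.4 with sh1; 3 of 6 rose with sh2 and 5 of 6 were higher with sh2 than with sh1. Among the 23 oocyte genes 5 could be tested, of which Zp3, a coat protein of the egg, rose and Ooep, Tle6 and Khdc3, of the maternal complex under the egg membrane, fell with sh1. With sh2 Zp3 and Khdc3 rose and Dppa3 fell. Of 33 tested genes for retroelement silencing, 9 rose and 11 fell with sh1 and 5 rose and 4 fell with sh2, beside 43.4% and 25.1% of all features called. Among them Dnmt3l, a cofactor of DNA methylation, rose by 0.85 and 0.87 on the log2 scale, Trim28, the corepressor recruited by zinc finger proteins, rose by 0.28 with sh2 and was higher by 0.27 with sh2 than with sh1, and Uhrf1, needed to maintain DNA methylation, fell by 0.39 and 0.19.

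The double knockdown of Dax1 and Dux gave no called MaLR row. By edgeR 0 of 86 rows were called, where 0.104% of all features and 0% of elements were; at an unadjusted p under 0.05 there were 1 higher and 2 lower, and DESeq2 called 1 higher. Medians of the log2 fold change were -0.03 for ORR1, -0.03 for MT and -0.09 for MLT, beside -0.11 for the other elements. ORR1A0-int stood at 62.6 and 60.6 CPM in the control and at 63.3 and 57.9 in the double knockdown, and MTD at 242 and 261 against 226 and 210. ORR1A0-int overlapped, and MTD was lower in both double knockdown libraries without passing the test (log2 -0.21, SE 0.132). The row DESeq2 called was MLT1E3, named after its values were seen, at 4.95 and 7.33 CPM in the control and 20.01 and 12.4 in the double knockdown (log2 1.40, edgeR adjusted p = 0.257, DESeq2 adjusted p = 0.0363).

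This table was noisier than the Dax1 table, and MLT rows held a larger share of its MaLR counts. Its common biological coefficient of variation was 0.189, against 0.0392 in the Dax1 table, and the median standard error of a fold change was 0.165 for ORR1, 0.174 for MT and 0.308 for MLT, so a shift of the size seen with sh2 could not have been resolved row by row. MLT rows held 17.2% to 18.3% of MaLR counts here against 13.3% to 16.8% in the other tables. Fibroblast markers stood at a summed 86.7 and 95.4 CPM in the double knockdown against 22.3 and 27.1 in its control, and MERVL-int at 185 and 167 against 102 and 75.1. Col1a1 alone held 45.6 and 54.9 CPM of the double knockdown sums. Of 7 tested fibroblast markers 0 were called, with 5 higher and 0 lower at an unadjusted p under 0.05. MERVL-int was not called either (edgeR quasi-likelihood F test, adjusted p = 0.209). Leaving out control replicate 2 gave 10 called rows, 5 in each direction, and leaving out control replicate 1 gave 2, both higher.

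Whether the effect of a single hairpin differed from that of the double knockdown was tested in 1 fit of all 20 libraries. In that fit the comparison with the control alone called 1 MaLR row for sh1 and 0 for sh2. The fit of the Dax1 table had called 15 and 29. Differences of the size seen with the hairpins could thus hardly be called row by row here. For each hairpin 0 of 88 MaLR rows were called by edgeR, where 0.639% of all features were called for sh1 and 0.459% for sh2, and 0.535% of elements for each; DESeq2 called 0 for both. At an unadjusted p under 0.05 there were 3 higher and 2 lower for sh1, and 7 higher and 1 lower for sh2. The median difference in log2 fold change was 0.03 for sh1, and for sh2 it was 0.33 in ORR1, 0.24 in MT and 0.15 in MLT, beside 0.30 for the other elements. ORR1B1-int had a difference of 0.61 for sh2 with a standard error of 0.275 (adjusted p = 0.431), and ORR1A0-int of 0.43 with 0.307 (adjusted p = 0.65). For MERVL-int the same test gave 2.34 for sh1 (adjusted p = 0.0105) and 1.35 for sh2 (adjusted p = 0.171). For its LTR MT2_Mm it gave 2.38 for sh1 (adjusted p = 0.000263) and 1.75 for sh2 (adjusted p = 0.00272). The 2 tables have separate controls, and a difference between the tables that acted on treated and control libraries unequally cannot be told apart from the effect.

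The libraries labelled KO1 and KO2 gave small MaLR differences from wild type that were not alike. In KO1, ORR1 rows stood at a summed 1940 and 1956 CPM, below the 2085 and 2300 of wild type, and in KO2 at 2344 and 2130, which overlap wild type. MT rows stood at 2045 and 2320 CPM in wild type, at 1981 and 2085 in KO1, and at 2431 and 2164 in KO2, and MLT rows at 679 and 795, 696 and 772, and 776 and 772 CPM. Only the ORR1 sum of KO1 was clear of wild type. MERVL-int stood at 148 and 157 CPM in wild type, at 188 and 201 in KO1, and at 284 and 333 in KO2, and the 2-cell genes at a summed 2.95 to 3.37, 36.1 to 39.6 and 131 to 154 CPM. Both lines are read against the same wild-type libraries.

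In KO1, 3 of 87 MaLR rows rose and 4 fell, where 31.2% of all features (17.4% higher, 13.8% lower) and 10% of elements were called. The 3 rows that fell among ORR1 were ORR1A0-int, from 152 and 142 CPM to 103 and 107 (log2 -0.48, SE 0.0993, adjusted p = 0.00522), ORR1E, from 167 and 193 to 129 and 133, and ORR1D1-int, from 35.4 and 33.0 to 21.4 and 20.5. MTB fell from 126 and 141 to 90.8 and 103 CPM. In these 4 rows both KO1 libraries were below both wild-type libraries. MLT1J2 rose from 4.45 and 6.98 CPM to 12.6 and 12.1, the largest change of the 7 (log2 1.10, SE 0.217, adjusted p = 0.00417), MTEb-int from 23.1 and 25.4 to 37.3 and 36.3, and MLT1H from 16.5 and 18.7 to 22.8 and 25.7. The ORR1 median was -0.17, with 25 of 28 values negative, against -0.13 for the other elements, and -0.07 with elements alone fitted. In that fit 4 MaLR rows were called, 3 higher and 1 lower. The count of 7 was 1 without KO1 replicate 1, 3 without KO1 replicate 2, 4 without wild-type replicate 1 or 2, and 20 without KO2 replicate 1 or 2.

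In KO2, 1 MaLR row rose and none fell, where 11.7% of all features (6.45% higher, 5.29% lower) and 4.79% of elements were called. It was MTB-int, at 59.5 and 46.9 CPM in wild type and 102 and 69.6 in KO2 (log2 0.69, SE 0.177, adjusted p = 0.0335); MTB_Mm-int, a row close to it in name, may share its reads. Both KO2 libraries were above wild type but lay far from each other. MTA_Mm-int stood at 313 and 308 CPM in wild type and 408 and 354 in KO2 (log2 0.30, adjusted p = 0.0784), and ORR1A0 at 66.5 and 75.5 against 97.4 and 93.8 (log2 0.43, adjusted p = 0.0575), and neither passed. Without KO2 replicate 2 the count was 14 and without KO2 replicate 1 it was 3; it was 1 without wild-type replicate 2, and 0 without wild-type replicate 1 or either KO1 replicate and with elements alone. Of these fits with a library left out, MTB-int was called in 1, that without KO2 replicate 2.

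More rows were called between the lines than between KO2 and wild type. In KO2 against KO1, 8 of 87 MaLR rows were higher and 0 lower, where 23% of all features (10.1% higher, 13% lower) and 7.92% of elements were called. These were 5 of 28 ORR1 rows and 3 of 20 MT rows, 6 of the 8 internal. ORR1A0-int stood at 103 and 107 CPM in KO1 and at 168 and 148 in KO2 (log2 0.59, SE 0.0992, adjusted p = 0.00313), with wild type at 152 and 142 between them in mean. ORR1A0 stood at 60.3 and 77.2 against 97.4 and 93.8 CPM, ORR1A1-int at 30.97 and 34.1 against 47.0 and 42.9, and ORR1E-int at 12.9 and 11.6 against 23.7 and 17.7. The KO2 libraries were above the KO1 libraries in each of these. MTA_Mm-int, MTB, MTE2a-int and ORR1D2-int, the last 2 chosen after their values were seen, were the others. Other elements leaned the same way, with a median of 0.16 and 50 higher against 13 lower of 810; with elements alone fitted 0 MaLR rows were called, and the medians of ORR1 and MT went from 0.19 and 0.13 to 0.02 and -0.04. The count of 8 was 0 without KO1 replicate 1, 2 without KO1 replicate 2, 4 without wild-type replicate 1 or 2, 22 without KO2 replicate 2 and 0 when all 20 libraries were fitted together.

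Markers of other cell types also differed between the lines, and their part in the MaLR values was not tested. The 6 primitive endoderm markers stood at a summed 37.3 and 38.2 CPM in wild type, at 8.23 and 11.1 in KO1, and at 25.1 and 27.3 in KO2. Of the 10 embryonic stem cell markers, 4 fell in KO1 (Klf4 by 1.48, Nanog by 0.53, Esrrb by 0.53 and Sall4 by 0.44 on the log2 scale) and Tdgf1 rose, while in KO2 Tdgf1 rose and none fell. Their sums overlapped in all 3 groups, which ran from 7737 to 8519 CPM in wild type, from 7890 to 8047 in KO1 and from 7605 to 9121 in KO2. Of 6 tested fibroblast markers, Col1a1, Col1a2 and Twist1 rose in KO1 by 3.22, 4.05 and 1.77 and Pdgfra and Thy1 fell by 2.03 and 0.60, and in KO2 Col1a1 rose by 1.77 and Thy1 fell by 0.47. Summed fibroblast markers stood at 43.1 to 44.5 CPM in wild type, 40.3 to 42.6 in KO1 and 34.4 to 38.0 in KO2. Of 33 silencing genes, 5 rose and 5 fell in KO1 and 3 rose and none fell in KO2, shares near the 31.2% and 11.7% of all features. Among them the de novo DNA methylation genes Dnmt3b and Dnmt3l rose in both, by 1.52 and 1.29 on the log2 scale in KO1 and by 1.01 and 1.11 in KO2.

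**Figure D4:**
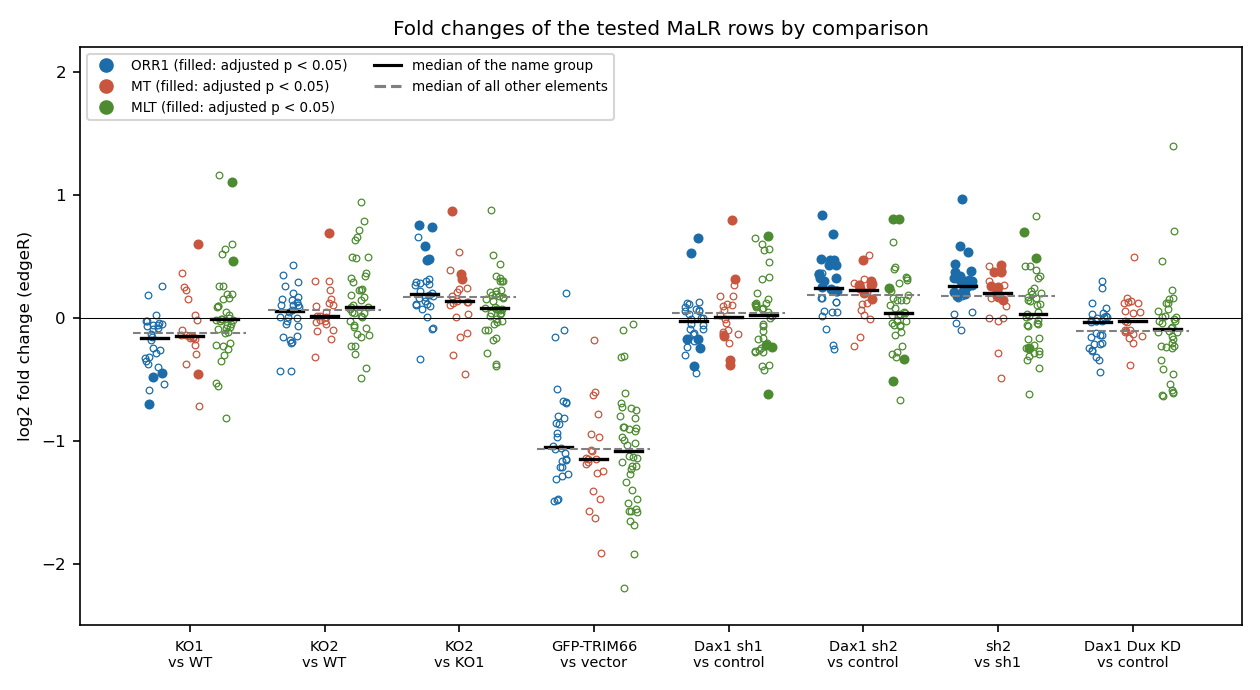
Log2 fold change (edgeR, 2 libraries a group) of every tested MaLR row in 8 comparisons, by name group; filled points have an adjusted p under 0.05, black bars are name group medians and dashed lines the median of all other elements. The GFP-TRIM66 medians run from -1.15 to -1.05 with no row called, and the sh2 medians of ORR1 and MT lie above that of MLT; with elements alone fitted the MaLR medians are -0.04 and -0.01.

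With GFP-TRIM66, nearly every MaLR row was lower than with the GFP vector, by about the same factor as the other elements, but no row passed the test. The summed level of all MaLR rows had a mean of 6512 CPM with the vector and 3419 with GFP-TRIM66, a ratio of 0.525. The 2 vector libraries differed from each other, at 3040 and 2383 CPM for ORR1, 3175 and 2556 for MT and 1043 and 828 for MLT. With GFP-TRIM66 the sums were 1652 and 1230, 1623 and 1276, and 553 and 504 CPM. No GFP-TRIM66 library reached a vector library in any of the 3 sums. By edgeR 0 of 88 rows were called, where 0.0199% of all features and 0% of elements were. At an unadjusted p under 0.05, 67 were lower and 0 higher, and DESeq2 called 29, all lower. In 1 fit of all 20 libraries, where the spread of the other tables enters, 74 were called. The share of all elements under these other rules is not given here, so the counts are not read as particular to MaLR rows.

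The direction held for 87 of 88 rows and the size was alike across the name groups. Medians were -1.05 for ORR1, -1.15 for MT and -1.08 for MLT, beside -1.07 for the other elements, -1.09 for ERVL, -1.06 for ERVK and -1.18 for L1, and 0.02 for genes. In 82 of the 88 rows both GFP-TRIM66 libraries lay below both vector libraries, as they did in 85.7% of all elements and 26.2% of all features. MTD stood at 807 and 571 CPM with the vector and at 353 and 257 with GFP-TRIM66 (log2 -1.18, SE 0.272, adjusted p = 0.163). MTC stood at 505 and 334 against 202 and 166, ORR1D1 at 374 and 254 against 165 and 116, and MTA_Mm at 314 and 302 against 181 and 134. The vector libraries were the higher ones in all 4. The element share of all counts ran from 4.17% in GFP-TRIM66 replicate 2 to 9.61% in vector replicate 1, the lowest and the highest of the 20 libraries, and fitting and scaling the elements alone brought the MaLR median from -1.09 to -0.04 and the ORR1, MT and MLT medians to 0.00, -0.10 and -0.02.

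**Figure D5:**
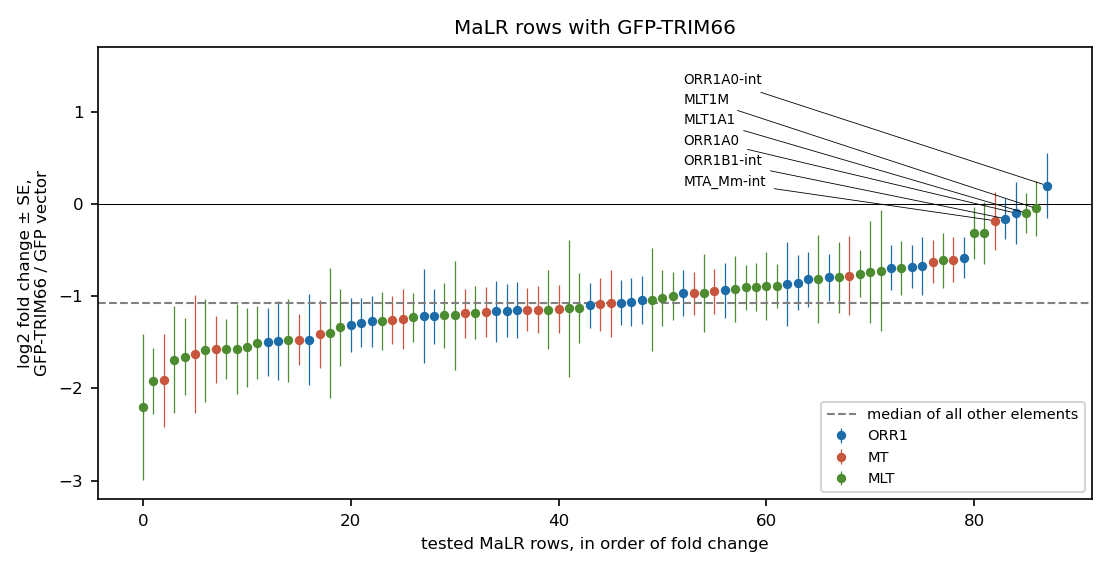
Log2 fold change with its standard error (edgeR, 2 libraries a group) of the 88 tested MaLR rows with GFP-TRIM66 against the GFP vector, in order of size; the dashed line is the median of all other elements. The 6 labelled rows are those in which the groups overlap, and no row had an adjusted p under 0.05; with elements alone fitted the MaLR median is -0.04.

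The 6 rows in which the groups overlapped, singled out after their values were seen, sat at the upper end of the order. ORR1A0-int stood at 51.5 and 85.5 CPM with the vector and at 100 and 57.0 with GFP-TRIM66, its LTR ORR1A0 at 62.4 and 68.6 against 81.4 and 40.9, and MTA_Mm-int at 195 and 323 against 271 and 185. In these rows the 2 libraries of each group disagreed, with vector replicate 1 low and GFP-TRIM66 replicate 1 high. MERVL-int showed the same order, at 125 and 204 CPM with the vector and 130 and 55.1 with GFP-TRIM66. MLT1A1 stood at 124 and 107 against 100 and 115 CPM, ORR1B1-int at 106 and 98.0 against 101 and 81.5, and MLT1M at 18.4 and 18.4 against 20.6 and 15.0. These 3 were nearly level across all 4 libraries. With elements alone fitted MLT1A1, MLT1M and ORR1B1-int were called higher, by 0.97, 0.97 and 0.88 on the log2 scale relative to elements. The common biological coefficient of variation of this table was 0.283, the highest of the 4. Leaving out vector replicate 2 gave 22 called rows, all lower, and leaving out either GFP-TRIM66 replicate gave 1.

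Other gene groups differed in the overexpression libraries as well, and their part in the MaLR values was not tested. The 2-cell genes stood at a summed 34.6 to 46.5 CPM with the vector and 4.68 to 8.16 with GFP-TRIM66, and 11 of 11 tested were lower at an unadjusted p under 0.05, with 0 called after adjustment. Genes near 0 counts with GFP-TRIM66 pass the filter on low counts only through the vector libraries, so their direction was largely fixed by the filter. Of 33 silencing genes 6 were higher and 0 lower at that unadjusted level, 1 of them Trim66 itself, the only one called. The others included its relatives Trim28, Trim24 and Trim33, with log2 fold changes of 0.98, 0.94 and 0.71. Embryonic stem cell markers stood at a summed 7231 to 7362 CPM with the vector and 8267 to 8342 with GFP-TRIM66, whereas fibroblast markers (28.2 to 59.9 against 38.7 to 52.5) and primitive endoderm markers (16.3 to 24.4 against 14.5 to 22.5) overlapped. Of the 10 stem cell markers 0 were called. At an unadjusted p under 0.05, 4 of them were higher and 1, Tdgf1, was lower.

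Over the 8 comparisons between groups, 48 of the 88 MaLR rows tested in at least 1 table were called at least once, where 66% of all features and 44.9% of elements were. These were 24 of 28 ORR1 rows, 14 of 20 MT rows and 10 of 40 MLT rows, and the difference between the name groups was not tested. Reads from a MaLR copy that lies inside a gene's transcript cannot be separated from reads of an element's own transcript in these tables, and strand was not given in the sources used here.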

How the data were processed

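Total RNA of mouse embryonic stem cells was sequenced, and the authors deposited 4 tables of read counts per gene and per element subfamily, whole numbers with no scaling, for 20 libraries. The submitters' processing notes name HISAT2 2.1.0, Cufflinks 2.2.1 and the mm10 build among their tools; which program counted elements, with what annotation, strand setting and rule for reads with several matches, was not given in the sources used here. The 9 ChIP samples of the series were not analysed here. Library totals ran from 12483949 to 17365296 counts, and replicate libraries of every group differed by more than sampling noise, so none was merged.

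Each table was fitted once with edgeR 4.0.16 (R 4.3.3): filterByExpr by group with a minimum count of 10, TMM over genes and elements together, the quasi-likelihood F test, and Benjamini-Hochberg adjustment over all features tested, with a call at 0.05 and no minimum fold. The standard error is the log2 fold change divided by the square root of F. Single and double knockdown effects were compared in 1 fit of all 20 libraries. The fits were also run on counts simulated from their own means and dispersions. Such counts cannot check the spread estimated from 2 libraries a group, nor the scaling of elements against genes. CPM values are TMM-scaled within a table, so levels are compared only within it. Shares of all features and of elements are given beside the adjusted edgeR calls. Counts by an unadjusted p or by the alternative fits have no such share beside them and are not read as particular to the rows counted.

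Members were taken by family name and the gene lists by role, and both were chosen with earlier results of these data known. Rows named in the text were the called members with the smallest adjusted p (up to 8 per comparison and direction against a control, up to 4 in KO2 against KO1 and sh2 against sh1), the 3 rows with the most reads in each name group, and 8 rows with the youngest names (MTA_Mm, ORR1A0 and ORR1A1 with their internal rows, MLT1A and MLT1A0); others are marked as chosen after their values were seen. The alternatives were edgeR with DESeq2 size factors, TMM from genes alone, no scaling factors for the summed levels, DESeq2 1.42.0, no filter, a minimum count of 50, elements alone, the replicate number as a block, 1 fit of all 20 libraries, and each library left out in turn; a crossed block in the overexpression table was added after seeing the data.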

Additional observations from a re-analysis of the deposited data

Results flagged for a closer look

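These rows differed between the lines labelled Trim66 knockout or between the hairpins by the direct edgeR test of that difference. In KO2 against KO1 the log2 difference was 0.59 for ORR1A0-int, 0.75 for ORR1E-int, 0.46 for ORR1A1-int and 0.47 for ORR1A0, and in each both KO2 libraries were above both KO1 libraries. In sh2 against sh1 it was 0.53 for ORR1B1-int, 0.38 for ORR1A0-int, 0.37 for MTEa and 0.44 for ORR1A2-int, higher in both sh2 libraries, and -0.25 for MLT1A1, lower in both. With elements alone fitted none of the 4 differences between the lines was called, and in 1 fit of all 20 libraries none of these 9 was.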

How the results depend on the processing

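Over the alternatives, 90 of 137 recomputed counts of called MaLR rows stayed within 1.5 times the reported count, 598 of 768 values of named rows kept their direction and their side of the threshold (117 lost the call, 35 gained it, 18 changed sign), and 159 of 168 summed levels moved by less than the spread between replicates. No filter on low counts gave 13 called rows in KO1 and 6 in KO2. Elements alone gave 4 in KO1, 0 in KO2, 0 in KO2 against KO1, 3 with GFP-TRIM66, 9 with sh2 and 9 in sh2 against sh1. DESeq2 gave 29 with GFP-TRIM66, 6 with sh1, 14 with sh2 and 1 in the double knockdown. One fit of all 20 libraries gave 4 in KO1, 0 in KO2 against KO1, 74 with GFP-TRIM66, 1 with sh1, 0 with sh2, 0 in sh2 against sh1 and 1 in the double knockdown; the cause of these shifts was not tested.

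With single libraries left out the counts ran from 1 to 20 in KO1, 0 to 14 in KO2, 0 to 22 in KO2 against KO1, 0 to 22 with GFP-TRIM66, 9 to 14 with sh1, 14 to 30 with sh2 and 0 to 10 in the double knockdown. Log2 ratios of summed levels ran from -0.25 to -0.12 for ORR1 in KO1; from 0.13 to 0.29 for ORR1, 0.093 to 0.28 for MT and 0.0053 to 0.16 for MLT in KO2 against KO1; from -0.94 to -0.64 for MLT with GFP-TRIM66; from -0.082 to 0.048 for ORR1 with sh1; from 0.23 to 0.34 for ORR1 in sh2 against sh1; and from -0.12 to -0.016 for ORR1 and -0.15 to -0.021 for MT in the double knockdown. The MaLR sum also changed sign without scaling factors with sh1, from -0.026 to 0.027, as did the MLT sum of the double knockdown, from -0.011 to 0.036, and the KO2 median of MaLR rows went from 0.06 to -0.06 without wild-type replicate 1. Among the named rows, changes of sign were seen only with GFP-TRIM66. With libraries left out log2 fold changes there ran from -0.18 to 0.013 for MLT1A1, -0.26 to 0.65 for ORR1A0-int, -0.50 to 0.27 for MTA_Mm-int and -0.67 to 0.33 for ORR1A0. With elements alone they were 0.36 for ORR1E, 0.79 for MTA_Mm-int, 0.97 for MLT1A1, 0.15 for MLT1B, 0.15 for MLT1C, 0.058 for MTA_Mm, 0.89 for ORR1A0, 0.35 for ORR1A1, 0.33 for ORR1A1-int and 0.0497 for MLT1A0.

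No label says what equal replicate numbers share, and they were not taken as pairs: deviations from the group means correlated by 0.182, 0.45 and 0.0929 in the knockout table, 0.0376, -0.0339 and 0.161 in the Dax1 table, 0.0366 in the double knockdown table and -0.646 in the overexpression table. The replicate block gave 11 called rows in KO1, 6 in KO2, 12 in KO2 against KO1, 0 with GFP-TRIM66, 17 with sh1, 33 with sh2, 36 in sh2 against sh1 and 0 in the double knockdown. The crossed replicate block, added after seeing the data, gave 70 with GFP-TRIM66.

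With 2 libraries a group, depth limits the MLT rows, which had the fewest counts; in the overexpression and double knockdown tables the spread between replicates was larger than in the Dax1 table.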
